A study of Bos taurus with 8 samples.

Results

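BCL6, HIVEP2 and IRF2BPL are 3 genes for transcriptional repressors and corepressor-type regulators whose RNA was followed in cultured bovine endothelial cells given leukemia inhibitory factor (LIF). They are 3 of the 25889 genes in the count table, and 3 of the 110 for which the authors' table pairs an Ensembl identifier with a gene name. They were picked from the genes that the study had called after LIF in choroidal cells, so their rise in those cells was fixed by the choice and is given below as a description without a test. The identifiers are ENSBTAG00000001511 for BCL6, ENSBTAG00000001146 for HIVEP2 and ENSBTAG00000025329 for IRF2BPL.

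RNA of bovine endothelial cells from the choroid (BCE) and from the aorta (BAE) was sequenced in 4 groups of 2 libraries, each given LIF at 10 ng/ml or its vehicle, PBS with 0.1% bovine serum albumin, with 6 h of incubation. Before that, cells spent 3 h in assay medium, which held 10% bovine calf serum for BCE cells and 1% for BAE cells. BCE cells had also been grown with bFGF and VEGF on fibronectin, and BAE cells without these factors. Cell type, serum and growth medium therefore changed together and cannot be told apart. Both are commercial primary cells, the BAE cells of a single lot, and no label says whether the 2 libraries of a group came from separate donors, so the p-values measure the spread between these libraries. Library totals ranged from 18600598 to 35269335 counts. Levels are in CPM, the count of a gene relative to its library's total after scaling with TMM, edgeR's correction for library composition, and are compared for 1 gene between libraries and not between genes, since gene lengths were not used. Of the 12 endothelial markers and 19 markers of other cell types that were listed, 0 could be matched to an identifier, so the labelled cell types were not checked here. In such bulk samples, fewer cells of a type and less RNA per cell cannot be told apart.

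LIF is a cytokine of the IL-6 family that signals through LIFR and gp130 to JAK kinases and STAT3. BCL6 is a zinc finger protein with a BTB domain that silences genes by recruiting corepressors such as BCOR, is best known from germinal center B cells, and binds DNA sites that resemble those of STAT factors. HIVEP2, also called Schnurri-2, is a very large zinc finger protein that binds sites like those of NF-kB and works with SMAD proteins in BMP signaling. IRF2BPL belongs to the family of IRF2-binding proteins, whose founding members act as corepressors of the interferon regulatory factor IRF2. What was measured here is the amount of their RNA and not their repressor activity.

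All 3 genes passed the filter on low counts in every comparison. The lowest value of any member in any library was 160 counts, for BCL6, where counting error alone is 7.91%. For IRF2BPL counting error ranged from 1.55% to 2.92%. RefSeq's annotation of another bovine assembly, ARS-UCD2.0, has 0 genes that overlap any of the 3, and places BCL6 between LPP and RTP2, HIVEP2 between ADGRG6 and AIG1, and IRF2BPL between LRRC74A and CIPC. The use of strand and of reads that map to several genes is not stated for the counting, so BCL6 and its paralog BCL6B are assumed to have been counted apart.

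LIF raised all 3 genes in BAE cells, a contrast that the rule for choosing them did not use, although earlier results of these libraries were known. BCL6 rose most, 4.27-fold, and IRF2BPL and HIVEP2 rose 2.33-fold and 2.2-fold. Each rise passed the threshold, an adjusted p of 0.05 over all genes tested, and both LIF-treated libraries lay above both vehicle-treated ones. Over all 13034 genes tested in BAE cells, 13.6% rose past the threshold and 30.8% had both LIF-treated libraries above both vehicle-treated ones. The median log2 fold change was 1.22 for the 3 genes and -0.00388 for all genes tested. It was 0.843 for the 83 tested named genes that were higher after LIF in BCE cells, of which 78 rose past the threshold.

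BCL6 in BAE cells stood at 7.94 and 7.33 CPM in the 2 vehicle-treated libraries and at 32.4 and 31.6 CPM in the 2 LIF-treated ones. The LIF-treated libraries were close to each other and at least 3.98 times any vehicle-treated one. The mean went from 7.63 ± 0.436 CPM without LIF to 32.0 ± 0.554 CPM with it (SD, n = 2). The log2 fold change was 2.09, with a standard error of 0.0902 and a 95% interval from 1.90 to 2.28, and edgeR's quasi-likelihood test gave an adjusted p of 5.01e-11. Of all genes tested in BAE cells, BCL6 had the 26th highest log2 fold change. Its counting intervals in the vehicle-treated libraries were 7.03 to 8.94 CPM and 6.24 to 8.55 CPM, so these libraries did not differ beyond counting error.

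HIVEP2 in BAE cells had 40.2 and 41.7 CPM with vehicle and 91.1 and 84.8 CPM with LIF. The gap between treatments was many times that between libraries of a group. The mean went from 41.0 ± 1.01 CPM without LIF to 88.0 ± 4.44 CPM with it (SD, n = 2). The log2 fold change was 1.14, with a standard error of 0.0604, a 95% interval from 1.01 to 1.26 and an adjusted p of 6.15e-10 in the same edgeR test.

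IRF2BPL in BAE cells had 71.7 and 70.8 CPM with vehicle and 162 and 163 CPM with LIF. Its libraries were the most alike of the 3 genes, with a coefficient of variation of 0.815% with vehicle and 0.141% with LIF. Counting error alone was 1.55% to 2.54% in these libraries, so a spread this small understates the uncertainty. The mean went from 71.2 ± 0.581 CPM without LIF to 162 ± 0.228 CPM with it (SD, n = 2). The log2 fold change was 1.22, with a standard error of 0.0453, a 95% interval from 1.12 to 1.32 and an adjusted p of 1.09e-11 in the same edgeR test. In none of the alternative settings, leaving out each BAE library included, did any of the 3 rises in BAE cells fall below the threshold.

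**Figure D1:**
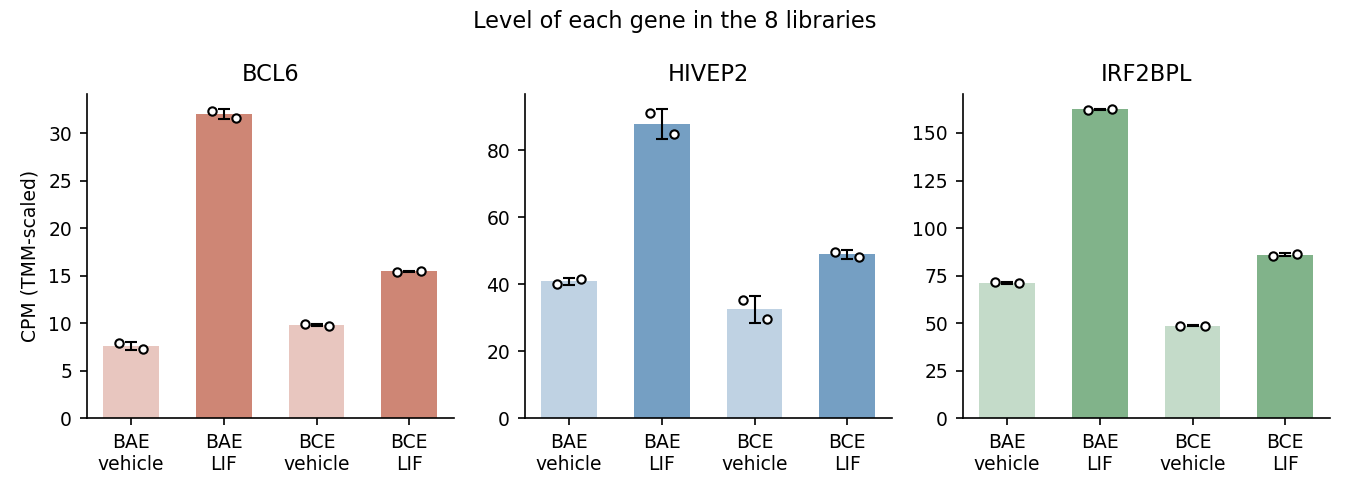
Level of BCL6, HIVEP2 and IRF2BPL in CPM (vertical axis, from 0) in the 4 groups. Bars are means of 2 libraries, error bars the SD and circles the libraries. In each panel the LIF-treated BAE libraries are the highest, at 31.6 CPM or more for BCL6, 84.8 for HIVEP2 and 162 for IRF2BPL.

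In BCE cells all 3 genes were also higher with LIF, by less, and this is the contrast that chose them. BCL6 stood at 9.91 and 9.70 CPM with vehicle and at 15.5 and 15.5 CPM with LIF, a log2 fold change of 0.66 ± 0.103 (SE). HIVEP2 had 35.3 and 29.6 CPM with vehicle and 49.8 and 48.1 CPM with LIF, a log2 fold change of 0.59 ± 0.0891 (SE). IRF2BPL had 48.3 and 48.7 CPM with vehicle and 85.5 and 86.6 CPM with LIF, a log2 fold change of 0.83 ± 0.0590 (SE). In each gene both LIF-treated libraries lay above both vehicle-treated ones, as did those of 20.3% of all 13014 genes tested, while 0.692% of all genes were called higher. Nothing is read from these shares, since the choice of the genes fixed their direction. For the same reason 2 other named genes are given only to place them, those with an adjusted p nearest to the threshold. Their log2 fold changes were 0.29 for VEGFC just inside and 0.26 for DDX21 just outside. The threshold is on the adjusted p, so these values are no cutoff on the fold change.

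The vehicle-treated BCE libraries of HIVEP2 differed by more than counting error, with counting intervals of 33.2 to 37.5 CPM and 27.5 to 31.9 CPM. Their coefficient of variation was 12.3%, the largest of any member in any group, and without replicate 1 or 2 of this group the log2 fold change of HIVEP2 was 0.73 or 0.47. The vehicle-treated BCE group also had the largest difference between its libraries over all genes, with a chi-square of 9.84 per gene against 2.57 to 5.74 in the other groups.

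The rise after LIF differed between the cell types for all 3 genes and was larger in BAE cells each time. This was tested as the difference of the LIF effects over all 8 libraries, of which 1 side is the contrast that chose the genes. BCL6 differed most, with a log2 difference (BCE minus BAE) of -1.40 ± 0.140 (SE), a 95% interval from -1.70 to -1.10 and an adjusted p of 1.87e-05 in edgeR's test. Its fold in BCE cells was 0.378 times that in BAE cells. The log2 difference was -0.36 ± 0.0698 (SE) for IRF2BPL, with a 95% interval from -0.51 to -0.21 and an adjusted p of 0.00712. It was -0.52 ± 0.109 (SE) for HIVEP2, with a 95% interval from -0.75 to -0.28 and an adjusted p of 0.0134. Of all 13646 genes tested, 2.52% had a larger value in BAE cells past the threshold. Among the 86 named genes higher after LIF in BCE cells, 42 did, with a median difference of -0.321. Passing the threshold thus did not set the 3 members apart from the genes chosen with them.

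The difference held for BCL6 and IRF2BPL under each alternative, with adjusted p-values of at most 0.000351 and 0.038. For HIVEP2 it missed the threshold without BAE vehicle replicate 1 (log2 difference -0.49, adjusted p = 0.0682), without BAE LIF replicate 1 (-0.46, adjusted p = 0.0957) and without BCE LIF replicate 2 (-0.51, adjusted p = 0.061), all from the same edgeR test.

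**Figure D2:**
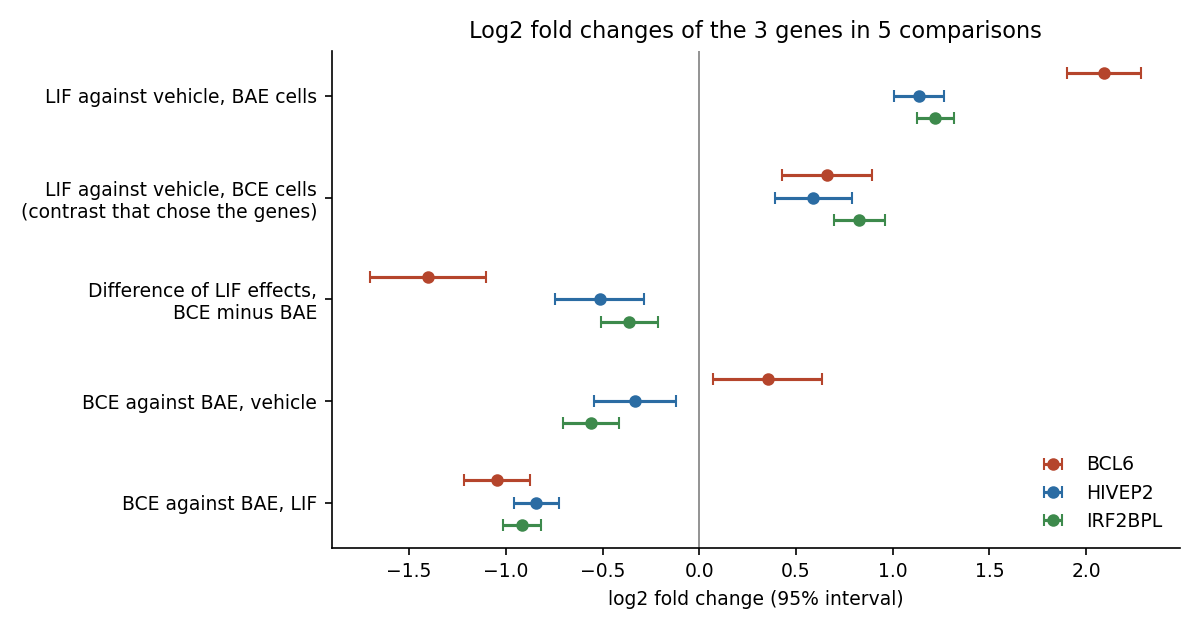
Log2 fold changes (horizontal axis) of the 3 genes in 5 comparisons, with 95% intervals from the edgeR fit. In BAE cells BCL6 lies at 2.09, above the intervals of HIVEP2 and IRF2BPL, while in BCE cells the 3 lie between 0.59 and 0.83.

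Without LIF the 3 genes did not stand the same way between the cell types. This comparison shares the vehicle-treated BCE libraries with the contrast that chose the genes. IRF2BPL was lower in BCE cells, at 48.5 ± 0.256 CPM against 71.2 ± 0.581 CPM in BAE cells (SD, n = 2). Its log2 fold change was -0.56 ± 0.0666 (SE), with an adjusted p of 2.14e-05 in edgeR's quasi-likelihood test. HIVEP2 was lower as well, at 32.5 ± 4.01 CPM against 41.0 ± 1.01 CPM, with a log2 fold change of -0.33 ± 0.0968 (SE) and an adjusted p of 0.0121 in the same test. BCL6 went the other way, at 9.81 ± 0.148 CPM in BCE cells against 7.63 ± 0.436 CPM in BAE cells, with a log2 fold change of 0.35 ± 0.129 (SE) and an adjusted p of 0.0358 in the same test.

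Of all 13426 genes tested without LIF, 26.2% were called higher and 27.6% lower in BCE cells, and 38.3% and 39% had groups that did not overlap, higher and lower. The call of BCL6 depended on the test and on single libraries. Its adjusted p was 0.133 with DESeq2's test, and from edgeR's test 0.0929 without BAE vehicle replicate 1, 0.2 without BAE vehicle replicate 2 and 0.0888 without BCE vehicle replicate 1, with log2 fold changes from 0.29 to 0.41. For HIVEP2 the call was lost without BCE vehicle replicate 2 (log2 fold change -0.21, adjusted p = 0.0536).

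With LIF all 3 genes were lower in BCE than in BAE cells. The log2 fold change was -1.05 ± 0.0842 for BCL6, -0.84 ± 0.0570 for HIVEP2 and -0.92 ± 0.0470 for IRF2BPL (SE). The adjusted p-values in edgeR's test were 5.55e-12, 1.05e-13 and 1.36e-16. These 3 values lie close together, where the values without LIF ran from -0.56 to 0.35. Of all 13217 genes tested, 32.2% were called lower in BCE cells with LIF and 40.4% had groups that did not overlap in that direction. The comparison shares the LIF-treated BCE libraries with the contrast that chose the genes.

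By their means, the 4 groups did not stand in the same order for every member. The order of BCL6 rests on its difference without LIF, whose call depended on the test and on single libraries. From the lowest to the highest level, BCL6 ran from BAE vehicle over BCE vehicle and BCE LIF to BAE LIF, with means of 7.63, 9.81, 15.5 and 32.0 CPM. HIVEP2 ran from BCE vehicle over BAE vehicle and BCE LIF to BAE LIF, with means of 32.5, 41.0, 48.9 and 88.0 CPM. IRF2BPL had the same order as HIVEP2, with means of 48.5, 71.2, 86.1 and 162 CPM. No neighboring groups in these orders overlapped in their libraries. Over all genes such a gap was common, at 38.3% and 39% (higher and lower in BCE cells) without LIF, 40.4% (lower in BCE cells) with LIF and 20.3% (higher with LIF) within BCE cells. For BCL6, the direction of the gap between BCE vehicle and BCE LIF was fixed by the choice of the genes. The neighbors BAE vehicle and BCE LIF were not tested against each other, and no share over all genes was computed for them.

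Ratios of raw counts within a library need no scaling between libraries, and in BAE cells they separated BCL6 from the other 2 genes. BCL6 had 0.111 and 0.103 counts per IRF2BPL count in the vehicle-treated BAE libraries and 0.200 and 0.195 in the LIF-treated ones. In BCE cells this ratio was 0.205 and 0.199 with vehicle and 0.181 and 0.179 with LIF. The ratio of the group means, LIF over vehicle, was 1.84 in BAE cells and 0.890 in BCE cells. BCL6 thus gained on IRF2BPL in BAE cells and did not in BCE cells, where counting error of each ratio was between 5.44% and 7.16%.

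For HIVEP2 against IRF2BPL the ratio of the group means, LIF over vehicle, was 0.942 in BAE cells and 0.849 in BCE cells. In BAE cells this ratio moved less than that of BCL6, and in BCE cells it did not. HIVEP2 counts per IRF2BPL count were 0.562 and 0.588 in BAE cells with vehicle and 0.562 and 0.522 with LIF, ranges that meet. In BCE cells they were 0.731 and 0.609 with vehicle and 0.582 and 0.555 with LIF, ranges that do not meet. The nearest 2 values, 0.609 and 0.582, had counting errors of 4.74% and 3.51% and did not differ beyond them. BCL6 counts per HIVEP2 count had a ratio of group means, LIF over vehicle, of 1.95 in BAE cells and 1.04 in BCE cells, where the 2 groups overlapped. These ratios are a description and were not tested.

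**Figure D3:**
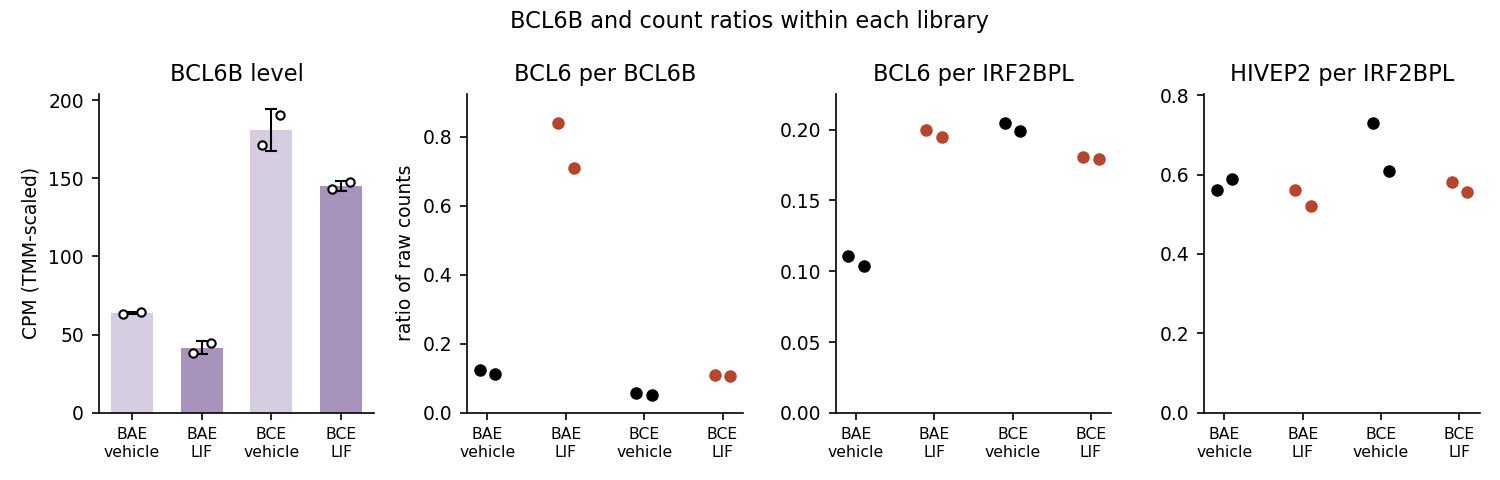
Level of BCL6B in CPM (first panel, bars as means of 2 libraries with SD, circles as libraries) and ratios of raw counts within each library (other panels, black for vehicle and red for LIF). BCL6 per BCL6B is highest in LIF-treated BAE libraries, at 0.709 and 0.841, and BCL6 per IRF2BPL is lowest in vehicle-treated BAE libraries.

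The paralog of BCL6 moved the opposite way. BCL6B (ENSBTAG00000020854), a BTB and zinc finger repressor known from endothelium and memory T cells, was the 1 gene with an identifier among the 16 listed as BCL6 relatives and corepressors. In BAE cells it stood at 63.4 and 64.4 CPM with vehicle and at 38.5 and 44.6 CPM with LIF. It fell in these cells, with a log2 fold change of -0.58 ± 0.0698 (SE) and an adjusted p of 1.02e-05 in edgeR's test. Over all genes tested in BAE cells 8.55% fell past the threshold.

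In BCE cells BCL6B had 171 and 190 CPM with vehicle and 143 and 147 CPM with LIF, a log2 fold change of -0.32 that is a description, since the study's calls in BCE cells gave it its name. The difference of its LIF effects was 0.30 (95% interval 0.09 to 0.50, adjusted p = 0.114 from edgeR's test) and did not pass the threshold. It passed with no filter on low counts (adjusted p = 0.00942) and without BCE vehicle replicate 2 (0.023, both from edgeR's test). BCL6B was higher in BCE than in BAE cells, with log2 fold changes of 1.5 without LIF (adjusted p = 1.98e-09) and 1.80 with LIF (adjusted p = 1.32e-21, both from edgeR's test). Of all genes tested, 26.2% without LIF and 31.7% with LIF were called higher in BCE cells. Per BCL6B count, BCL6 counts went from 0.125 and 0.114 to 0.841 and 0.709 with LIF in BAE cells, and from 0.0579 and 0.0509 to 0.108 and 0.105 in BCE cells. The ratio of the group means, LIF over vehicle, was 6.49 in BAE cells and 1.96 in BCE cells.

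Other genes around the members could be followed where the authors' table names them, and every one of these had been called by the study in BCE cells. Among the genes listed as known BCL6 targets, MYC, a growth-promoting transcription factor, rose in BAE cells by a log2 fold change of 0.89 (adjusted p = 2.49e-10). SOCS2, an inhibitor of cytokine signaling, had a log2 fold change of -0.75 and fell past the threshold (adjusted p = 0.0027, both from edgeR's quasi-likelihood test).

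Of the 15 genes listed for the LIF receptor pathway 3 had an identifier, and all 3 rose in BAE cells past the threshold. So did 78 of the 83 tested named genes that were higher after LIF in BCE cells, and 13.6% of all genes tested. The study's calls in BCE cells gave these 3 their names, so their rise does not set the pathway apart. SOCS3, the feedback inhibitor of gp130 signaling, rose by a log2 fold change of 3.44, OSMR, a receptor subunit for the related cytokine oncostatin M, by 1.20 and STAT3 by 0.99 (adjusted p = 1.01e-13, 5.72e-09 and 3.88e-11 from edgeR's test). BCL6, at 2.09, lay between SOCS3 and OSMR. The difference of the LIF effects was -2.21 for SOCS3 and -0.33 for STAT3, past the threshold in both (adjusted p = 1.05e-07 and 0.0075). For OSMR it was -0.26 and did not pass (adjusted p = 0.266, all from edgeR's test).

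Among 17 genes listed with NF-kB sites, which HIVEP2 can compete for, 2 had an identifier. ICAM1, a leukocyte adhesion molecule, rose in BAE cells by a log2 fold change of 1.47 (adjusted p = 6.28e-12 from edgeR's test). CCL2, a monocyte chemokine, had a log2 fold change of -0.95 and fell past the threshold (adjusted p = 0.00643), but the call was lost without BAE vehicle replicate 1 (-0.73, adjusted p = 0.122) and without BAE LIF replicate 2 (-0.76, adjusted p = 0.0798, all from edgeR's test). Among 8 genes listed for BMP and SMAD signaling 2 had an identifier. ID1 rose in BAE cells by 1.45 (adjusted p = 2.23e-10) and its relative ID3 had a log2 fold change of -0.65 and fell (adjusted p = 1e-05, both from edgeR's test). Both are inhibitors of DNA binding by other transcription factors. None of the 2 listed HIVEP relatives and the 4 listed IRF2BP relatives and IRF genes had an identifier.

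The members were also set beside other regulators that the study placed with them. All 11 other genes of its list for negative regulation of transcription rose in BAE cells, where 13.6% of all genes tested rose, with a median log2 fold change of 0.89. Of these JUNB, an AP-1 subunit, had the smallest p and rose by 1.17 (adjusted p = 2.7e-11 from edgeR's test), close to IRF2BPL and HIVEP2. The difference of the LIF effects was lower in BCE cells past the threshold for 6 of the 11, higher for 1 and not past it for 4. Of all genes tested 2.52% were lower and 1.16% higher. That list was chosen by the study on the BCE libraries and is not independent evidence of a direction there. Of the 86 named genes that were higher after LIF in BCE cells, 83 were tested in BAE cells and 78 of these rose past the threshold, so a rise in BAE cells did not set the 3 members apart from the genes chosen with them. BCL6 ranked 8th, IRF2BPL 23rd and HIVEP2 26th of the 83 by log2 fold change in BAE cells. By the difference of the LIF effects BCL6 had the 3rd most negative value of the 86, HIVEP2 the 27th and IRF2BPL the 37th. Without LIF, by the log2 fold change of BCE over BAE, BCL6 was 37th, HIVEP2 62nd and IRF2BPL 68th from the highest of the 86.

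**Figure D4:**
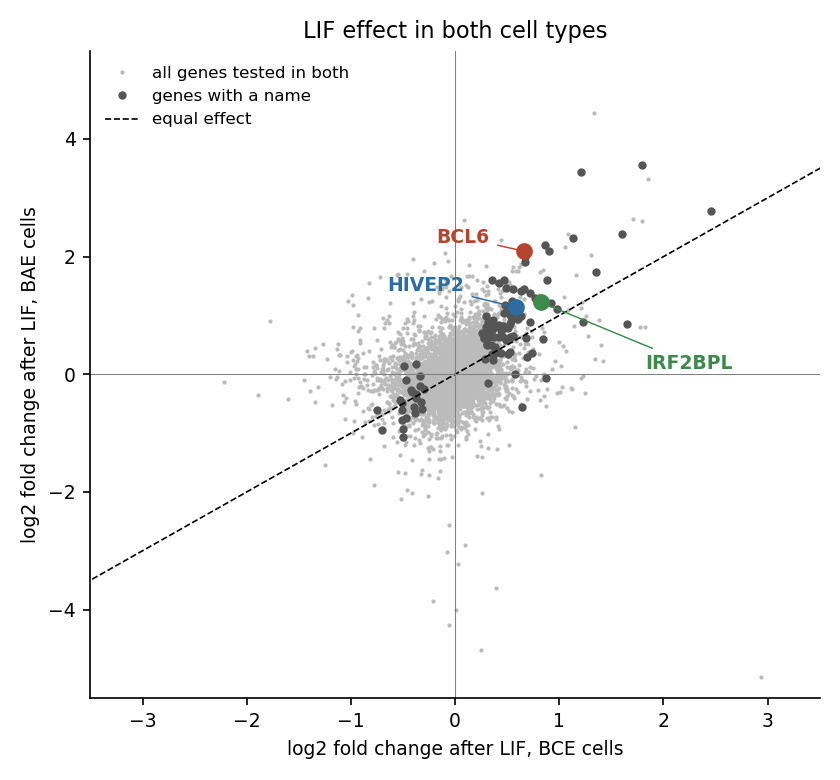
Log2 fold change after LIF in BCE cells (horizontal axis) and BAE cells (vertical axis) for every gene tested in both (light points), the named genes (dark points) and the 3 members (colored). The dashed line marks equal effects, and all 3 members lie above it, BCL6 farthest with 0.66 in BCE and 2.09 in BAE cells.

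The named genes with the profile most like each member over the 8 libraries were found by the smallest root mean square difference of centered log2 CPM, among 109 genes. For BCL6 these were the ubiquitin ligase MARCH3 (0.226, Pearson r = 0.961), the transcription regulator SBNO2 (0.236, r = 0.966) and NLRC5, an activator of MHC class I genes (0.238, r = 0.990). For HIVEP2 they were the adhesion molecule SELP (0.104, r = 0.982), the AP-1 subunit JUNB (0.120, r = 0.983) and IRF2BPL (0.135, r = 0.986). For IRF2BPL they were HIVEP2 (0.135, r = 0.986), JUNB (0.144, r = 0.974) and SELP (0.149, r = 0.986). HIVEP2 and IRF2BPL were thus among each other's nearest, while BCL6 ranked 27th for HIVEP2 and 24th for IRF2BPL. Among the genes nearest to BCL6, HIVEP2 was 10th (r = 0.911) and IRF2BPL 11th (r = 0.884). All 109 genes had been called by the study after LIF in BCE cells, so close profiles were favored by that choice. These correlations run over 8 libraries in 4 groups that share their treatments, and they describe a likeness only.

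**Figure D5:**
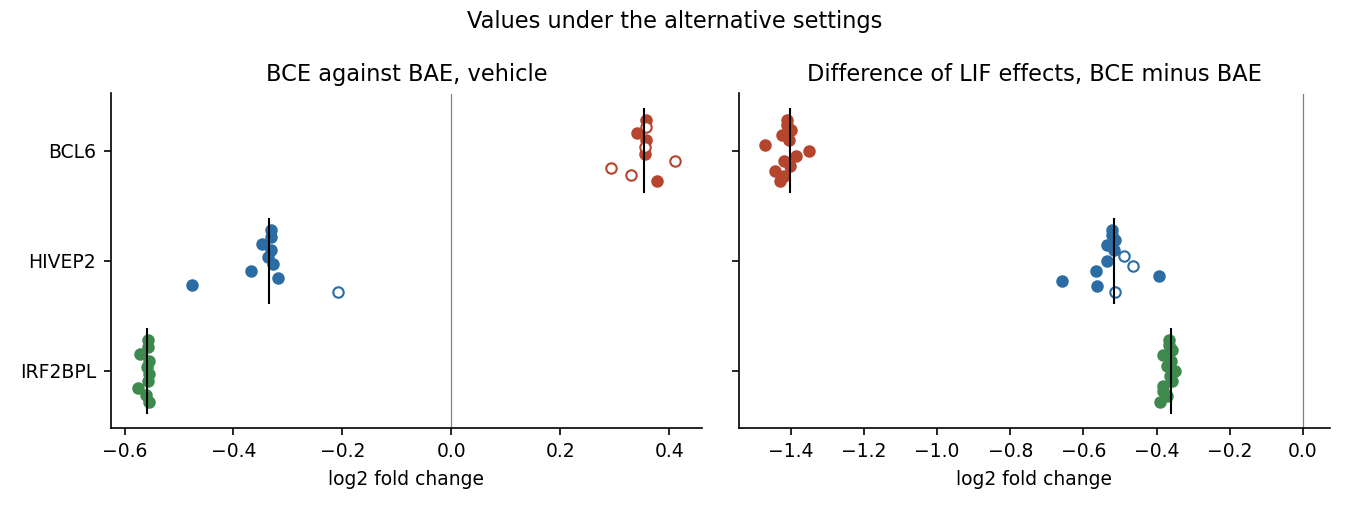
Log2 fold changes (horizontal axis) of the 3 genes under each alternative setting, for BCE against BAE cells with vehicle (left) and for the difference of the LIF effects (right). Vertical bars mark the reported value, filled points settings with an adjusted p under 0.05 and open points the others. Open points appear for BCL6 on the left and for HIVEP2 in both panels.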

How the data were processed

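Reads were mapped by the authors to the bovine assembly UMD 3.1 with TopHat (2.0.12) and Bowtie (2.2.3), counted per gene with HTSeq (0.6.1) and deposited raw counts, 1 column per library, which were used as deposited. The authors' own calls for LIF in BCE cells, made with DESeq (1.18.0), hold group means, fold changes and p-values, which were not used; that table gave gene names only. The table deposited for BAE cells holds the same bytes and was left out. Counts were tested in R (4.3.3) with edgeR (4.0.16): filterByExpr (minimum count 10, total 15), TMM, quasi-likelihood test and Benjamini-Hochberg adjustment over all genes tested, threshold 0.05, 4 libraries per comparison and all 8 for the difference of the LIF effects. Standard errors and 95% intervals come from the F statistics, counting intervals are exact Poisson and cover counting error only. Log2 CPM used a prior count of 2. DESeq2 (1.42.0), other scaling and filters, a replicate block, all 8 libraries in 1 fit and leaving out each library were alternatives. With a library left out, the lone library of its group is assumed to vary like the others. The tests were checked on simulated counts.

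The members and gene lists were chosen with earlier results of these data known. Named are the 3 members, up to 4 genes of each list with the smallest p in BAE cells, and the 3 nearest profiles per member. The RefSeq table pairs 0 of its genes with Ensembl identifiers, so most listed genes, the corepressors and markers among them, were not analysed here. No promoter or protein sequence was used here, and 1 listed BCL6 target is not reported here.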

Additional observations from a re-analysis of the deposited data

Results flagged for a closer look

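By edgeR's interaction test over all 8 libraries, the response to LIF differed between the 2 cell types past the threshold for all 3 members. Over all 13646 genes tested, 2.52% were lower and 1.16% higher in BCE cells past the threshold. Of the 86 named genes higher after LIF in BCE cells, 42 were lower past it, so passing did not set the members apart. Some of the genes listed around the members passed as well, while OSMR, CCL2, SOCS2, ID3 and BCL6B were among those that did not. The BCE side of this test is the contrast that chose the members and gave the listed genes their names. For HIVEP2 the call depended on single libraries, with differences from -0.66 to -0.39 when 1 was left out. The difference on the log2 scale, BCE minus BAE, came to -1.40 for BCL6, -0.516 for HIVEP2 and -0.361 for IRF2BPL. It was -2.21 for SOCS3, -0.954 for ICAM1, -0.757 for ID1, -0.546 for MYC and -0.327 for STAT3. All genes with a difference given in this paragraph had positive log2 fold changes after LIF in both cell types, larger in BAE cells. In BCE cells this direction followed from the study's calls. Serum, growth medium and cell type changed together between these groups and cannot be told apart. Groups of 2 libraries were too small for a search for single deviating libraries.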

How the results depend on the processing

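Of 159 values of the 3 members under alternative settings, 150 were counted as kept, 9 kept the direction and missed the threshold, and 0 reversed. Kept means the same direction and side of the threshold. In BCE cells, where no test applies, it means the same direction and a move smaller than the spread between libraries. With 1 of 2 libraries of a BCE group left out, the move is smaller than that spread almost by construction. Those values are therefore no check of the BCE effects. The 9 concern BCL6 and HIVEP2. Between vehicle-treated cells the log2 fold change of BCL6 was 0.36 with DESeq2's test (adjusted p = 0.133) and 0.36 with the replicate block (adjusted p = 0.0505 from edgeR's test). With 1 library left out it ranged from 0.29 to 0.41, and that of HIVEP2 from -0.48 to -0.21. The difference of the LIF effects for HIVEP2 ranged from -0.66 to -0.39. The causes were not tested.

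Counts over all genes moved more. In BAE cells 2889 genes passed, 1920 with DESeq2's test, and 1807 to 2905 with 1 library left out, the lowest without LIF replicate 1. In BCE cells 120 passed, 437 without the filter, 226 with the replicate block and 217 with all 8 libraries. Leaving out a BCE library gave 1423 and 477 (vehicle replicate 1 and 2), and 56 and 55 (LIF replicate 1 and 2). The difference of the LIF effects passed in 502 genes, in 889 without the filter, and in 261 to 948 with 1 library left out, the highest without BCE vehicle replicate 1. It passed in 281 without BAE vehicle replicate 1, in 261 and 293 without BAE LIF replicate 1 and 2, and in 292 and 272 without BCE LIF replicate 1 and 2.

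By the replicate numbers of the titles, the deviations of same-numbered libraries correlated between -0.0531 and 0.1, highest between the BCE groups. The labels of the count columns number the libraries differently. These values do not settle whether same-numbered libraries shared a batch, and no pairing was assumed in the main tests. The block changed the call of BCL6 without LIF and of BCL6B for the difference of the LIF effects (0.31, adjusted p = 0.0496 from edgeR's test). BCL6 had 160 to 815 counts per library, the fewest of the 3 members, and counting error limits its precision.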
